A study of Mus musculus with 8 samples.

Results

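The 41 genes described here are targets of the nuclear receptor PPAR alpha and enzymes of fatty acid oxidation in mouse liver. They were chosen by name, as genes whose single symbol in GEO's platform annotation is on a list of this pathway. The list was drawn up with earlier results of these data known. All 41 were measured, by 97 of the 45220 features, among 19087 named genes. Liver RNA of 9-month-old Wrn mutant mice was set against liver RNA of wild type mice on 8 dual-colour Agilent arrays, 4 with untreated mutants and 4 with mutants given vitamin C. The helicase made from Wrn opens DNA duplexes. Both channels of every array carry the strain C57Bl/6, and food and water were unrestricted under a reversed cycle, 12 h light to 12 h dark. Neither the Wrn allele nor the dose and length of treatment could be read from the labels, and no vitamin C treated wild type is among the samples. On replicates 1 and 2 of each group, the unswapped arrays, Cy5 marked the mutant. On replicates 3 and 4, the swapped arrays, Cy3 did.

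PPAR alpha is a transcription factor that fatty acids activate, most of all in fasting. With its partner RXR it binds direct repeats near genes that carry fatty acids into mitochondria and peroxisomes and oxidise them there, and liver is where this programme is strongest. In rodents, activating drugs also enlarge the peroxisome compartment and raise Cyp4a enzymes, which start the oxidation of fatty acids from the far end of the chain.

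The deposited values are log ratios with medians between -0.01 and 0.00 on the 8 arrays, and no intensity was given, so a level, and with it the presence of liver transcripts, could not be checked. They were read as log2, a base that no label states. No label states either whether the swapped arrays had already been turned to mutant over wild type. Each value against wild type is therefore given in 2 readings. As deposited, every array is mutant over wild type. The other reading takes the deposited value of every array as Cy5 over Cy3, which is wild type over mutant on replicates 3 and 4, and their sign is then turned so that all 8 arrays are mutant over wild type. On the unswapped arrays both readings give the same sign. The array titles name the mutant first on the unswapped arrays and the wild type first on the swapped ones, and the direction of a ratio is not settled by them. The fit also gave a dye coefficient, the distance of the mean of the 4 unswapped arrays from the mean of all 8 as deposited. If the values are turned by the dyes, that number becomes the mean of both mutant groups over wild type. The orientation of the dyes and the animals numbered 1 and 2 against 3 and 4 cannot be told apart. The labels give both arrays of a number the same wild type number, so the comparisons of untreated and of treated mutants with wild type share controls.

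The main feature of the 41 genes was a split by dye orientation among the oxidation enzymes. The list was chosen with earlier results of these data known, so the shares below describe it and do not test it. Ehhadh, Aldh3a2, Acadl, Decr1, Acaa1a and Cyp4a14 passed the test for the dye coefficient (limma, adjusted p under 0.05), all with the unswapped arrays higher. These 6 are 14.6% of the members, where 1.94% of all genes passed, 1.62% above 0 and 0.325% below. With the shared wild type number as a block, Cyp4a14 was not called (limma, adjusted p = 0.0548), which left 5 members, 12.2% against 1.37% of all genes. The block used the same correlation, 0.129, for every gene. The intraclass correlation by number, a measure of likeness, had a median of 0.73 over the members and 0.22 over all genes. Among the 6 it ran from 0.77 for Cyp4a14 to 0.98 for Aldh3a2. Arrays of a number share an orientation, so that likeness includes the split, and the block cannot separate them. Whether the 5 calls hold with a correlation per gene was not tested. Without the block, 18 members had an unadjusted p under 0.05, 43.9% against 15.6%. Of these, 15 were above 0 and 3 below, against 8.76% and 6.82% of all genes. Over the members 28 of 41 dye coefficients, 68.3%, were above 0, against 45.6% of all genes, with medians of 0.12 and -0.01. With the values as deposited, no member passed for untreated mutants, treated mutants or their mean over wild type, nor for treated over untreated mutants, and 0%, 0%, 0.0105% and 0% of all genes did. With the values turned by the dyes, 7 members were higher in both mutant groups averaged, 17.1% of the members, where 1.62% of all genes passed and 1.38% were higher. Which of these statements holds of the mutants thus rests on the reading of the swapped arrays.

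**Figure D1:**
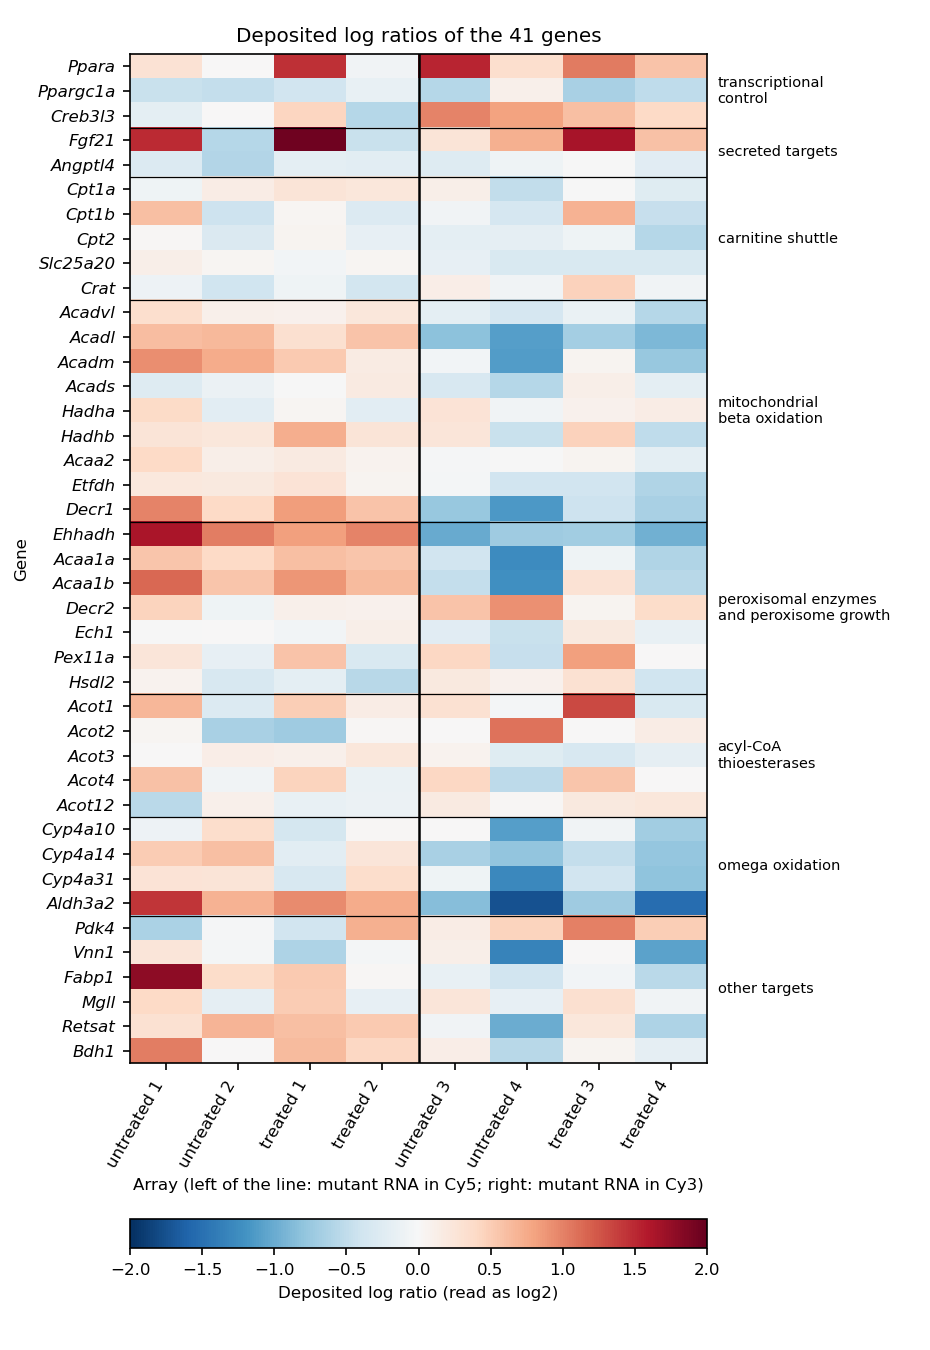
Deposited log ratio (colour, read as log2) of the 41 genes (rows, grouped by role) on the 8 arrays (columns), with the 4 unswapped arrays left of the line and the 4 swapped arrays right of it. Ehhadh, Aldh3a2, Acadl and Decr1 are red on all 4 unswapped arrays and blue on all 4 swapped ones, while Ppara and Fgf21 are strongest on single arrays of both kinds.

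Ppara, which encodes the receptor itself, leaned above 0 as deposited. It stood at 0.29, 0.00, 1.53 and 0.34 on untreated replicates 1 to 4 and at 1.47, -0.07, 1.03 and 0.56 on treated replicates 1 to 4. Untreated 3 and treated 1 and 3 were high, treated 2 was the 1 array below 0, and the groups overlapped. Both groups averaged 0.64 ± 0.18 (SE, n = 8 arrays sharing 4 wild type numbers) over wild type. This ratio of 1.56-fold did not pass (limma, adjusted p = 0.314). Turned by the dyes the mean was -0.22 ± 0.18 (adjusted p = 0.599). The 10 features of Ppara, all of 1 transcript accession, had a median SD of 0.12 within an array, while the 8 arrays had an SD of 0.63, so the spread lies between arrays rather than between features.

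Ppargc1a, a coactivator of PPAR alpha and of mitochondrial genes, was below 0 on 7 of 8 arrays as deposited. Its values were -0.45, -0.47, -0.56 and 0.10 in untreated and -0.38, -0.16, -0.64 and -0.51 in treated mutants. The untreated replicate 4 stood alone above 0. Both groups averaged -0.38 ± 0.09 (limma, adjusted p = 0.241), and 0.02 ± 0.08 turned by the dyes. On the 4 unswapped arrays alone, where the reading does not matter, the mean was -0.37 (limma, adjusted p = 0.225). Its 2 features have different accessions and differed by a median SD of 0.33 within an array.

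Creb3l3, a liver transcription factor that cooperates with PPAR alpha in fasting, had its mean on the swapped arrays above that on the unswapped ones. It stood at -0.19, 0.01, 0.99 and 0.81 in untreated and 0.42, -0.57, 0.60 and 0.41 in treated mutants. The swapped arrays were the higher ones in the untreated group, and treated 2 was the lowest of all 8. The dye coefficient was -0.39 ± 0.11 (limma, adjusted p = 0.125). Over wild type the untreated mean was 0.41 ± 0.16 as deposited and -0.50 ± 0.15 turned by the dyes.

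Of the 2 secreted targets, Fgf21 had the wider spread between arrays, and Angptl4 had 1 sign throughout as deposited. Fgf21, a hepatic hormone of fasting, stood at 1.49, -0.57, 0.26 and 0.71 in untreated mutants and at 1.95, -0.45, 1.65 and 0.58 in treated ones. Both arrays of replicate 2 were below 0 and the other 6 above as deposited, and the groups overlapped over most of their range. The treated mean of 0.93 ± 0.40 as deposited did not pass (limma, adjusted p = 0.702), and turned by the dyes it was -0.19 ± 0.41. Angptl4, an inhibitor of lipoprotein lipase, was as deposited the only member below 0 on all 8 arrays, as 0.964% of all genes were. When turned it was below 0 on 4 of the 8, and no member was on all 8, as 1.38% of all genes were. It stood at -0.28, -0.58, -0.26 and -0.08 in untreated and at -0.20, -0.21, -0.01 and -0.23 in treated mutants. The mean was -0.23 ± 0.07 as deposited (limma, adjusted p = 0.332) and -0.09 ± 0.07 turned by the dyes.

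The carnitine shuttle, which moves long-chain fatty acids into mitochondria, had means near 0 as deposited. None of Cpt1a, Cpt1b, Cpt2, Slc25a20 and Crat passed in any comparison under either reading. Their means of both groups over wild type lay between -0.18 and -0.01 as deposited and between -0.17 and 0.15 turned by the dyes. Cpt1a is the rate-limiting acyltransferase of liver and a textbook target of the receptor. Over its 11 features its mean was -0.01 ± 0.08 as deposited and its dye coefficient 0.15 ± 0.08. The carrier Slc25a20 had all 4 unswapped arrays above all 4 swapped ones, by little, with a dye coefficient of 0.15 ± 0.06. Crat, which handles short acyl groups, was the only member with all swapped arrays above all unswapped ones, as 4.4% of all genes had. Its gap was small, with -0.081 as the highest unswapped and -0.066 as the lowest swapped value. The dye coefficient of Crat was -0.17 ± 0.08 (limma, adjusted p = 0.347).

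Of the 9 members of mitochondrial beta oxidation, 8 had a dye coefficient above 0 and 2, Acadl and Decr1, passed. Of all genes, 45.6% were above 0 and 1.94% passed. Acadl, the long-chain acyl-CoA dehydrogenase, stood at 0.62, 0.64, -0.81 and -1.10 in untreated and at 0.32, 0.57, -0.68 and -0.90 in treated mutants. All unswapped values were above 0 and all swapped ones below. The dye coefficient was 0.70 ± 0.07 (limma, adjusted p = 0.00429). Decr1, the mitochondrial dienoyl-CoA reductase for unsaturated fatty acids, stood at 0.99, 0.41, -0.76 and -1.15 in untreated and at 0.83, 0.56, -0.42 and -0.64 in treated mutants. Its orientations did not overlap, and its dye coefficient was 0.72 ± 0.09 (limma, adjusted p = 0.00793). The 2 features of Decr1, of 1 accession, gave dye coefficients of 0.53 and 0.91. They read -0.79 and -0.04 on treated 3 and -1.34 and 0.05 on treated 4. Acadm, the medium-chain dehydrogenase, reached 0.53 ± 0.14 and did not pass (adjusted p = 0.109). The very-long-chain enzyme Acadvl, the electron carrier dehydrogenase Etfdh and the thiolase Acaa2 also had their unswapped arrays above their swapped ones, at 0.25 ± 0.07, 0.27 ± 0.07 and 0.12 ± 0.07. Hadha and Hadhb, the subunits of the trifunctional protein, stood at -0.05 ± 0.09 and 0.21 ± 0.12.

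Acads, the short-chain dehydrogenase, had a dye coefficient of 0.10 ± 0.07. As deposited it was below 0 on all 4 untreated arrays, at -0.25, -0.12, -0.32 and -0.56, and near 0 on the treated ones, at -0.01, 0.18, 0.11 and -0.20. The groups overlapped only where treated 4 reached the untreated range. As deposited, the untreated mean was -0.31 ± 0.10 (limma, adjusted p = 0.552), and turned by the dyes it was 0.13 ± 0.13.

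Peroxisomal enzymes held the member with the smallest p, Ehhadh, the bifunctional enzyme of peroxisomal beta oxidation and a standard marker of PPAR alpha activation in rodents. It stood at 1.63, 1.02, -1.01 and -0.71 in untreated and at 0.82, 0.99, -0.69 and -0.97 in treated mutants. Its dye coefficient was 0.98 ± 0.09 (limma, adjusted p = 0.00394), which is a mean of 1.97-fold over wild type if the values are turned by the dyes. As deposited the mean was 0.14 ± 0.09. The thiolases Acaa1a and Acaa1b are close paralogs whose features may share signal. Acaa1a stood at 0.56, 0.40, -0.39 and -1.25 in untreated and at 0.61, 0.55, -0.08 and -0.60 in treated mutants, without overlap of the orientations, with a dye coefficient of 0.56 ± 0.11 (adjusted p = 0.0349). Its 3 features gave dye coefficients from 0.27 to 0.88. Acaa1b had 0.65 ± 0.14 (adjusted p = 0.052), just over the threshold.

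The other 4 peroxisomal members had overlapping orientations. Decr2, the peroxisomal dienoyl-CoA reductase, leaned the other way from Decr1. It stood at 0.45, -0.09, 0.58 and 0.92 in untreated and at 0.10, 0.09, 0.06 and 0.37 in treated mutants. The untreated mean of 0.46 ± 0.13 as deposited had the smallest p of any member in that comparison (limma, adjusted p = 0.486), and it was -0.28 ± 0.14 turned by the dyes. Ech1, an isomerase for unsaturated chains, stood at -0.01, 0.00, -0.23 and -0.45 in untreated and at -0.06, 0.12, 0.19 and -0.15 in treated mutants. Pex11a, which takes part in peroxisome division, and Hsdl2, a peroxisomal short-chain dehydrogenase, had dye coefficients of -0.06 ± 0.14 and -0.15 ± 0.09.

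**Figure D2:**
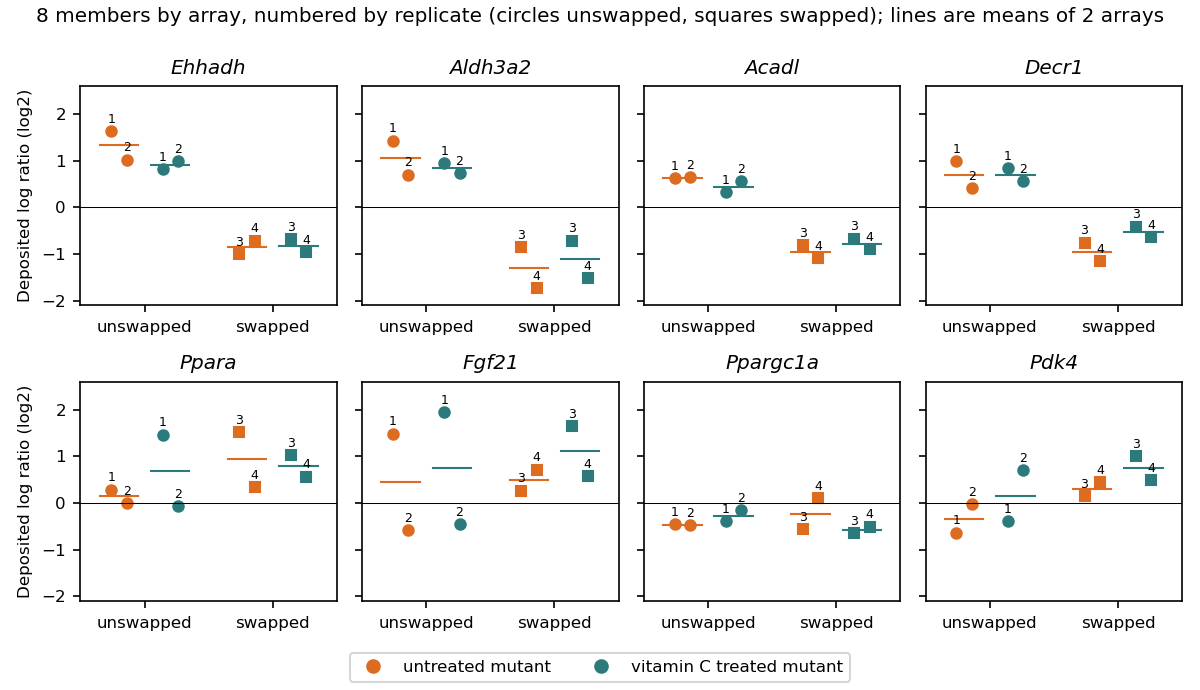
Deposited log ratio (y axis, log2) of 8 members on each array, with unswapped arrays (circles) left and swapped arrays (squares) right, untreated mutants in orange and treated ones in teal, numbered by replicate, and each line the mean of 2 arrays. In the top row all unswapped points lie above 0 and all swapped points below, and in the bottom row the points of both orientations overlap.

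The acyl-CoA thioesterases, which release free fatty acids from coenzyme A, showed no common direction. Acot1, Acot2, Acot3, Acot4 and Acot12 had dye coefficients from -0.32 to 0.14 and means as deposited from -0.02 to 0.29, none of which passed. Acot1, the cytosolic thioesterase that fasting raises in rodents, ranged from -0.30 on treated 4 to 1.31 on treated 3. Acot1, Acot2, Acot3 and Acot4 are close copies on chromosome 12, and a feature may bind more than 1 of them.

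Omega oxidation, the microsomal route, had dye coefficients above 0 in all 4 members, of which 2 passed. Over all genes these shares were 45.6% and 1.94%. Aldh3a2, the fatty aldehyde dehydrogenase, had the largest dye coefficient of the 41 at 1.08 ± 0.13 (limma, adjusted p = 0.00655), or 2.11-fold over wild type if turned. It stood at 1.43, 0.70, -0.86 and -1.74 in untreated and at 0.94, 0.74, -0.72 and -1.52 in treated mutants. All 4 unswapped values were positive and all 4 swapped ones negative. Cyp4a14, a fatty acid omega hydroxylase, stood at 0.50, 0.60, -0.65 and -0.79 in untreated and at -0.21, 0.24, -0.48 and -0.77 in treated mutants. Its dye coefficient was 0.48 ± 0.09 (limma, adjusted p = 0.0329), and the call was lost under the block for the wild type number (adjusted p = 0.0548). Its treated mean was -0.30 ± 0.13 as deposited (adjusted p = 0.698). Cyp4a31 and Cyp4a10, close paralogs of Cyp4a14, had 0.39 ± 0.14 and 0.22 ± 0.14 and did not pass.

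None of the 6 other targets passed. Pdk4, a kinase that shuts pyruvate out of oxidation when fat is burned, stood at -0.64, -0.03, 0.15 and 0.44 in untreated and at -0.38, 0.71, 1.01 and 0.50 in treated mutants. As deposited the treated array was the higher in each number, although the groups overlapped. When turned by the dyes it was the lower in numbers 3 and 4, and the mean difference was 0.02. Its treated mean was 0.46 ± 0.18 as deposited (limma, adjusted p = 0.69) and -0.29 ± 0.21 turned by the dyes. Fabp1, the liver fatty acid binding protein, had 1.79 on untreated 1 and lay between -0.54 and 0.52 on the other 7 arrays. Its unswapped values were all above its swapped ones, with a dye coefficient of 0.48 ± 0.16 that did not pass (adjusted p = 0.185). Retsat, a retinol saturase, and Bdh1, the ketone body dehydrogenase, had 0.45 ± 0.12 and 0.33 ± 0.12. The 2 features of Bdh1, of different accessions, gave dye coefficients of -0.03 and 0.68. Vnn1, a pantetheinase, and Mgll, the monoglyceride lipase, had 0.23 ± 0.17 and 0.03 ± 0.11.

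In all, 14 members had every unswapped array above every swapped one, 34.1% of the members against 5.97% of all genes. They were Slc25a20, Acadvl, Acadl, Acadm, Acaa2, Etfdh, Decr1, Ehhadh, Acaa1a, Acaa1b, Cyp4a14, Aldh3a2, Fabp1 and Retsat. Neither the receptor, its partners in transcription nor the secreted targets were among them. For Acaa2 the gap was small, with 0.064 as the lowest unswapped and 0.054 as the highest swapped value. The plot of unswapped against swapped means shows the 6 called members in the lower right corner, away from Ppara and Fgf21 in the upper right. Ehhadh, Acadl, Aldh3a2 and Decr1 kept their call for the dye coefficient when any 1 array was left out. Cyp4a14 lost it without any array but treated 1 or treated 3, with adjusted p from 0.0714 to 0.104 (limma), and Acaa1a without any array but untreated 3 or treated 3, with 0.0634 to 0.108. Without both arrays of number 2 none of the 6 passed, with 0.0504 for Ehhadh, and without both of number 1 only Ehhadh and Acadl did, with 0.0452 for each.

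**Figure D3:**
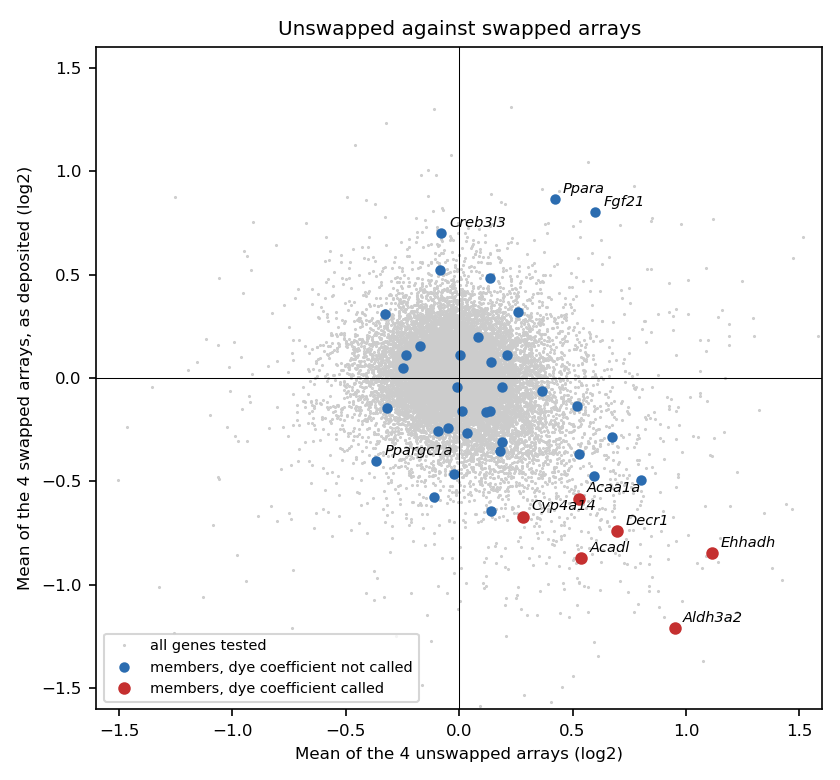
Mean of the 4 unswapped arrays (x axis, log2) against the mean of the 4 swapped arrays as deposited (y axis, log2) for all 19087 genes (grey, 16 of them beyond the axes) and the 41 members (blue, or red where the dye coefficient passed). The 6 red members lie below 0 on the y axis and above 0 on the x axis, with Aldh3a2 at 0.95 and -1.21.

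Each orientation was also fitted alone, on 4 arrays, without a dye term or a block. Within an orientation the mutant always carries the same dye, so a dye effect and a difference from wild type cannot be told apart. The 4 arrays come from numbers 1 and 2 when unswapped and from 3 and 4 when swapped, so they share wild type numbers. On the unswapped arrays Ehhadh averaged 1.11 over wild type in both groups and passed (limma, adjusted p = 0.0483), as 0.173% of all genes did. Aldh3a2, at 0.95, had an adjusted p of 0.0789 there and Acaa1b, at 0.80, one of 0.0955. The unadjusted p was under 0.05 for 14 members, 34.1% against 13.7% of all genes, of which 12 were higher and 2, Ppargc1a and Angptl4, lower, against 7.89% and 5.8% of all genes. On the swapped arrays as deposited no member passed (limma), and 0.00524% of all genes did. By unadjusted p under 0.05, 17 members, 41.5% against 10.8%, stood out, of which 12 were lower and 5 higher, against 6.3% and 4.53%. Ehhadh was at -0.85 there (limma, adjusted p = 0.131) and Acadl at -0.87 (adjusted p = 0.122).

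In the reading turned by the dyes, the 7 members that passed for both groups averaged over wild type were all higher. They were the 6 of the dye coefficient and Acaa1b at 0.65 ± 0.13 (limma, adjusted p = 0.0482). Under a block for the wild type number, Acaa1a and Acaa1b no longer passed (adjusted p = 0.062 and 0.0617), and without both arrays of number 1 or of number 2 none of the 7 did, with 0.0591 and 0.0534 for Ehhadh. For untreated mutants Ehhadh at 1.09 ± 0.13 and Acadl at 0.79 ± 0.10 passed (adjusted p = 0.0471 for each), 2 of the 9 genes that did, or 4.88% of the members against 0.0472% of all genes. No member passed for treated mutants, where 0.0524% of all genes did. By unadjusted p under 0.05, 9 members, or 22%, were higher, against 5.38% of all genes. Ehhadh was then at 0.87 ± 0.13, Acadl at 0.62 ± 0.10 and Aldh3a2 at 0.98 ± 0.18. That these passed in one group and not in the other does not show a difference between the groups, and 0% of all genes passed for treated over untreated in this reading.

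**Figure D4:**
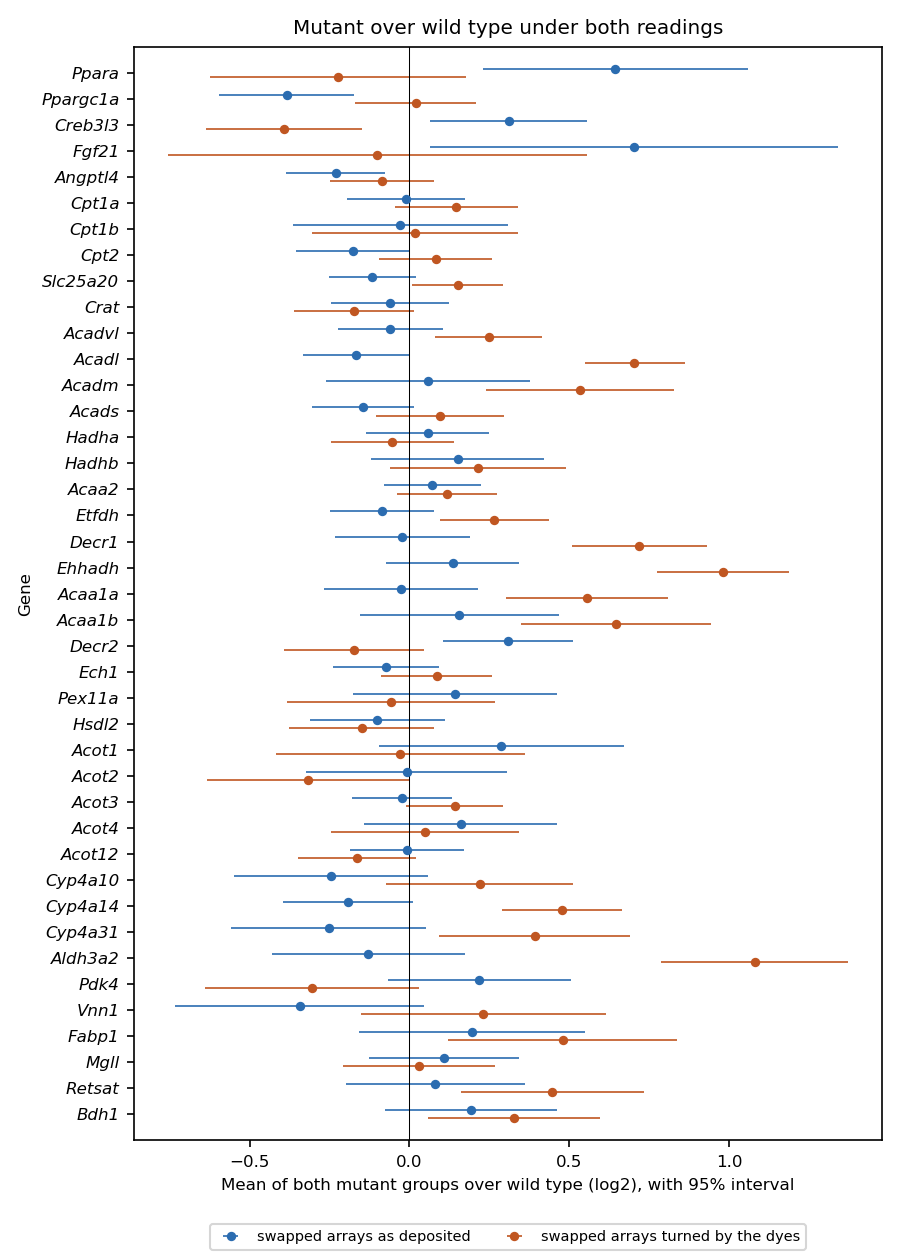
Mean of both mutant groups over wild type (x axis, log2, with 95% interval from limma, n = 8 arrays) for each of the 41 genes (y axis), with the swapped arrays as deposited (blue) and turned by the dyes (orange). Ehhadh moves from 0.14 to 0.98 and Aldh3a2 from -0.13 to 1.08 between the readings, while Ppara moves from 0.64 to -0.22.

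As deposited, the shares of members called were near those of all genes. At an unadjusted p under 0.05 there were 5 members for untreated mutants, 12.2% against 7.79% of all genes. They were Creb3l3 and Decr2 above 0 and Ppargc1a, Angptl4 and Acads below, against 3.14% and 4.65% of all genes. For treated mutants there were also 5, 12.2% against 7.09%, with Ppara, Fgf21 and Pdk4 above 0 and Ppargc1a and Cyp4a14 below, against 3.73% and 3.37%. For both groups averaged there were 6, 14.6% against 9.84%. The median of the members was -0.02 in untreated and 0.02 in treated mutants, beside -0.01 and 0.00 over all genes.

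The share of members above 0 varied between arrays. As deposited, members above 0 numbered 31, 24, 20 and 9 of 41 on untreated replicates 1 to 4 and 27, 26, 24 and 10 on treated replicates 1 to 4, so that as deposited replicate 4 was the lowest in both groups. In the turned reading, replicate 3 had 21 and 17 members above 0 and replicate 4 had 32 and 31, the highest count of each group. Its medians were -0.38 and -0.30 as deposited and 0.38 and 0.30 when turned, against 0.28 and 0.17 on replicate 1. Between 48.4% and 52.1% of all genes were above 0 on each array. Both arrays of a number carry RNA with the same wild type number.

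Between treated and untreated mutants no member passed in either reading. This comparison asked whether vitamin C moved the pathway in the mutants. As deposited, Acads at 0.33 ± 0.14 (limma, adjusted p = 0.974) was the only member at an unadjusted p under 0.05, 2.44% against 4.28% of all genes, and turned by the dyes there was none, against 3% of all genes. Next came Pdk4 at 0.47 ± 0.26, Decr2 at -0.31 ± 0.18 and Ech1 at 0.20 ± 0.15. Turned by the dyes these 4 stood at -0.06, 0.02, 0.22 and -0.16, so that Acads, Decr2 and Ech1 changed sign. The 95% intervals were wide. For Ppara the difference lay between -0.62 and 1.04 as deposited, for Ehhadh between -0.61 and 0.22 and for Fgf21 between -0.82 and 1.74.

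Within a number the treated and the untreated array share the wild type number and the dyes. Acads differed there by 0.24, 0.30, 0.43 and 0.36 in numbers 1 to 4 as deposited. Pdk4 differed by 0.26, 0.73, 0.85 and 0.05. When that number was fitted as a block, neither passed (limma, adjusted p = 0.757 for each), and 0% of all genes did. As deposited, 5 members, Crat, Acads, Acaa1a, Pdk4 and Mgll, were higher in the treated mutant in all 4 numbers, 12.2% against 9.17% of all genes, and none was lower in all 4, as 6.66% were. For Crat the difference in number 4 was 0.00. None of these 5 was among them when turned by the dyes. Then 1 member, Ppargc1a, was higher in all 4 numbers, 2.44% against 5.72% of all genes, and 4, Acadl, Acadm, Acot4 and Cyp4a14, were lower in all 4, 9.76% against 6.32%.

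**Figure D5:**
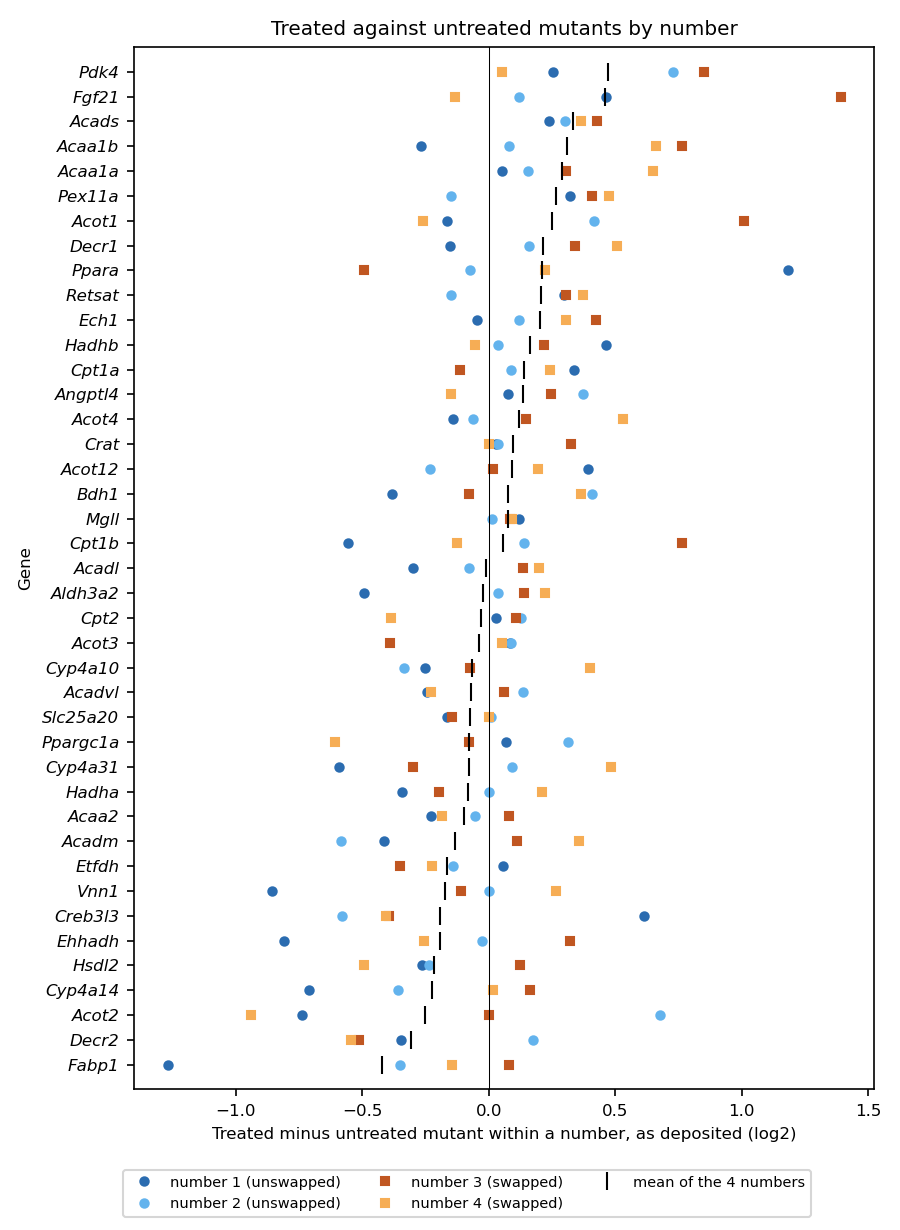
Treated minus untreated mutant (x axis, log2, as deposited) within each of the 4 numbers (points) for each of the 41 genes (y axis), with the mean as a bar. Acads lies between 0.24 and 0.43 in all 4 numbers, while Fgf21 reaches 1.39 in number 3 and -0.13 in number 4.

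The proximal promoters of the members were searched for the direct repeat that PPAR alpha and RXR bind, because the enzymes that led the split are known targets. RefSeq promoters on the build GRCm38.p6 were matched for 32 of the 41 genes, as 36 windows of 250 bases before the start. The repeat AGGTCANAGGTCA, on either strand, was in 0 of them and in 0.0335% of 32851 promoters. Its looser form AGGNCANAGGTCA was in the window of 1 member, Fabp1, 2.78% of the 36 windows against 0.0822% of all. The form AGGNCANAGGNCA, which includes both others, was also in Fabp1 alone, against 0.338% of all promoters. The single site AGGTCA was in 7 members, Acadm, Acadvl, Acot12, Acot4, Cpt1a, Creb3l3 and Fabp1, or 19.4% of the windows against 14% of all. A match is a description of letters, and a missing match says only that these letters are not in this window. The window of Fabp1, chr6:71199629-71199878 on the plus strand, is shown because it holds the repeat, on the opposite strand and in capitals, beginning 67 bases before the start. Those of Ehhadh (chr16:21787835-21788084), Acadl (chr1:66863310-66863559) and Aldh3a2 (chr11:61267187-61267436), all on the minus strand, are shown because these genes led the split, and they hold none of the 4 patterns. All are written 5′ to 3′ on the strand of the gene.
Fabp1: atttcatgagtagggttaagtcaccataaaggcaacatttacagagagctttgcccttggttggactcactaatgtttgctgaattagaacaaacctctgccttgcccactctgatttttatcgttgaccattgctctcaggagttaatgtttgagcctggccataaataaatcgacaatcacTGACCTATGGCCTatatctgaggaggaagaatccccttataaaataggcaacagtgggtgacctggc
Ehhadh: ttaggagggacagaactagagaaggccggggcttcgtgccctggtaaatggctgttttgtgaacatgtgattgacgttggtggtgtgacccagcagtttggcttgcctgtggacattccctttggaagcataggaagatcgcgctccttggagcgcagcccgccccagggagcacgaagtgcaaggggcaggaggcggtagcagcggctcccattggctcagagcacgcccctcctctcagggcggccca
Acadl: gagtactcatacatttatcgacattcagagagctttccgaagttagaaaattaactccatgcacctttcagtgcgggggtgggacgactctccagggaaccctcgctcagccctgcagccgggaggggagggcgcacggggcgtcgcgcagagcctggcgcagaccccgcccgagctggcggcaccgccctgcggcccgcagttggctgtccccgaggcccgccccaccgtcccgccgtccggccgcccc
Aldh3a2: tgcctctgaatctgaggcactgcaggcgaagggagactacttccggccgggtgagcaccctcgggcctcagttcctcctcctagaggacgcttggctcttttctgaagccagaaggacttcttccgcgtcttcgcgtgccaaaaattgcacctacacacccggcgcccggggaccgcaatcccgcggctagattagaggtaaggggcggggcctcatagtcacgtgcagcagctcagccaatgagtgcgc

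The rest of the pathway was taken from a list of 84 further genes, of which 73 were measured, and it was described in the same way. Of the 73, 40 had a dye coefficient above 0, with a median of 0.03, and 3 passed, 4.11% against 1.94% of all genes. By direction, 1.37% passed above 0 and 2.74% below, against 1.62% and 0.325% of all genes. At an unadjusted p under 0.05 (limma) there were 13 above 0 and 13 below, 17.8% each, against 8.76% and 6.82%. Slc27a2, which activates very long chain fatty acids, was the 1 that passed above 0, at 0.59 ± 0.07 (limma, adjusted p = 0.00627). It stood at 0.49, 0.54, -0.48 and -0.77 in untreated and at 0.27, 0.55, -0.69 and -0.89 in treated mutants. Hacl1, a peroxisomal lyase of alpha oxidation, at -0.83 ± 0.16 (adjusted p = 0.0383), and the lipid droplet protein gene Cidec at -0.78 ± 0.16 (adjusted p = 0.0467) were below 0. Over wild type none of the 73 passed as deposited. By unadjusted p under 0.05 (limma), 4 were higher and 12 lower in untreated mutants as deposited. These are 5.48% and 16.4% of the 73 beside 3.14% and 4.65% of all genes. In treated mutants 4 were higher and 3 lower, 5.48% and 4.11% beside 3.73% and 3.37%. Turned by the dyes, 6 were higher and 4 lower in untreated mutants, 8.22% and 5.48% beside 5.77% and 4.35% of all genes. In treated ones 8 were then higher and 5 lower, 11% and 6.85% beside 5.38% and 3.77%. In the turned reading, Slc27a2 was higher (limma, adjusted p = 0.0083) and Hacl1 lower (adjusted p = 0.039) in both mutant groups averaged, 1.37% of the 73 each way beside 1.38% and 0.241% of all genes. Those of smallest p in untreated mutants were Pex16, a peroxisome assembly factor, at -0.73 ± 0.15, the fatty acid transporter gene Slc27a1 at -0.74 ± 0.21 and the lipid droplet gene Plin5 at -0.43 ± 0.12. In treated mutants they were Txnip at -0.50 ± 0.16, Lpin1, a coactivator of PPAR alpha, at 0.69 ± 0.23 and Pex16 at -0.44 ± 0.15. Between treated and untreated mutants they were Plin5 at 0.58 ± 0.18, Scp2, the peroxisomal thiolase and sterol carrier, at -0.43 ± 0.14 and Cidec at 0.78 ± 0.32. Turned by the dyes, the first 6 of these values were -0.10, 0.09, -0.21, 0.44, -0.63 and -0.23, and the last 3 were -0.05, -0.19 and -0.50.

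Markers of cell types also differed by array, and in bulk liver fewer cells of a type and less RNA per cell cannot be told apart. Of the 8 hepatocyte markers listed, 6 were measured. Their mean was 0.26, 0.28, -0.22 and -0.37 in untreated and 0.17, 0.18, -0.13 and -0.39 in treated mutants, so that the orientations did not overlap. Alb, the albumin gene, stood at 0.50, 1.25, -0.18 and -0.37 in untreated and at 0.22, 0.73, -0.39 and -0.33 in treated mutants. Its dye coefficient of 0.50 passed (limma, adjusted p = 0.0423), and it alone of the 6 did. In all, 4 of the 6 were above 0, where 45.6% of all genes were. Apoa2, Ttr and Fgb had 0.47, 0.45 and 0.14, and Apoa1 and Hnf4a had -0.02 and -0.03. Of 12 Kupffer cell and macrophage markers 10 were measured. Their mean lay between 0.96 and 1.18 on the unswapped arrays, but at -1.89 and -1.62 on the arrays of number 3 and at 0.45 and 2.13 on those of number 4. Of the 10 dye coefficients 9 were above 0, and none passed. Cd163 went the other way, with 1.00 and 1.98 on number 3, -0.24 and 0.01 on number 1 and a dye coefficient of -0.54 (limma, adjusted p = 0.0638). Marco weighed on the means, at -5.35 and -4.76 on number 3 and 0.77 and 4.79 on number 4. The means of the sinusoidal endothelial, stellate cell, cholangiocyte, lymphocyte, red cell and adipocyte markers lay within -0.40 and 0.49, -0.34 and 0.25, -0.49 and 0.41, -0.63 and 0.52, -1.41 and 0.71, and -0.08 and 0.28 on the 8 arrays. The part of these cell types in the values of the members was not tested.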

How the data were processed

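Total liver RNA was measured on 8 dual-colour Agilent arrays, 4 per mutant group, each against wild type RNA. The deposited values are 1 log ratio per feature, read as log2. The submitters' processing notes name limma, and its settings for background and normalization were not found in the labels. No intensity was used, so no probe could be filtered by brightness, and the number of arrays limits the precision. Genes were named from GEO's platform annotation. Of 45220 features, 33653 had 1 symbol, 56 several and 11511 none, and averaging over the features per symbol left 19087 genes and 0 missing values.

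Each gene was fitted in limma 3.58.1 (R 4.3.3, lmFit and eBayes) on the 8 arrays, with 1 coefficient for either group and 1 dye coefficient in common, which left 5 residual degrees of freedom. P-values were adjusted by Benjamini-Hochberg over 19087 genes, and an adjusted p under 0.05 was called. The fit was tested on simulated data. Per the labels, both arrays of a number share a wild type number, which is where the pairing comes from. The main fit has no block for it, so its SEs, intervals and p-values treat the 8 arrays as independent. The deviations of the 2 arrays from their group means correlated over genes at 0.381, 0.324, 0.514 and 0.341 in numbers 1 to 4. These deviations still hold the difference between the orientations. The residuals of the main fit, which removes it, correlated at 0.00294, 0.0319, 0.243 and 0.203. The arrays of numbers 1 and 2 hold a median of 15 significant digits per value and those of numbers 3 and 4 hold 6, so they were not written out alike. Per the series' text the replicates are independent biological ones.

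The members and all lists were chosen with earlier results of these data known. Members given on every array are the 4 of smallest p for untreated over wild type, treated over wild type, treated over untreated and the dye coefficient, every called member, and Ppara. Fgf21 and Alb were added after their values were seen. Of the pathway lists, the 3 genes of smallest p in each comparison are named, and only Slc27a2 among them is given on every array. Alternatives were the turned reading, the dye term, the block, leaving out arrays, single features or their median, scaling and robust moderation. The block for the dye coefficient, the single orientations, leaving out both arrays of a number, and the turned reading of sign counts and far arrays were added after seeing the data.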

Additional observations from a re-analysis of the deposited data

Results flagged for a closer look

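Among the 82 groups of 4 arrays, 2 for each of the 41 genes, 6 held an array far from the other 3, and chance flags about 4.1. These values are as deposited, and each group holds 2 unswapped and 2 swapped arrays, so a far array depends on the reading. Turned by the dyes, 5 groups held 1 and none of the 6 was among them. Ppargc1a on untreated replicate 4 was at 0.10, with the others between -0.56 and -0.45. Creb3l3 on treated replicate 2 was at -0.57, with the others between 0.41 and 0.60. Angptl4 on treated replicate 3 was at -0.01, with the others between -0.23 and -0.20. Hadhb on untreated replicate 4 was at -0.45, with the others between 0.22 and 0.26. Decr2 on treated replicate 4 was at 0.37, with the others between 0.06 and 0.10. Acot2 on treated replicate 1 was at -0.70, with the others between 0.00 and 0.14. The 6 genes whose unswapped and swapped arrays differed by the test of the dye coefficient (limma, adjusted p under 0.05) were Acadl at 0.70, Decr1 at 0.72, Ehhadh at 0.98, Acaa1a at 0.56, Cyp4a14 at 0.48 and Aldh3a2 at 1.08.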

How the results depend on the processing

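Of 990 values recomputed under the alternatives, 829 kept their direction and their side of the threshold or moved by less than the spread. The reading of the swapped arrays moved most. Turned by the dyes, 9 genes and 2 members passed for untreated mutants, 10 genes for treated, 309 genes and 7 members for both over wild type, and 1 gene and 0 members for the dye coefficient. Signs then reversed for Decr2 (-0.28), Acads (0.13) and Creb3l3 (-0.50) in untreated mutants, Ppargc1a (0.15), Ppara (-0.05), Pdk4 (-0.29) and Cyp4a14 (0.32) in treated ones, and Decr2 (0.22), Acads (-0.06) and Ech1 (-0.16) for treated over untreated. For both over wild type, Decr2 (-0.17), Creb3l3 (-0.39), Ppargc1a (0.02) and Ppara (-0.22) reversed. For the dye coefficient Creb3l3 (0.31), Pdk4 (0.22), Cyp4a14 (-0.19), Acadl (-0.17), Aldh3a2 (-0.13), Decr1 (-0.02) and Acaa1a (-0.03) reversed, since turning exchanges that coefficient with the mean of both groups. On the unswapped arrays alone Creb3l3 was at -0.09 in untreated mutants and -0.08 in both groups, Cyp4a14 at 0.02 in treated ones, 1 gene passed for treated mutants, and 33 genes and 1 member for both over wild type. For both over wild type as deposited, 2 genes passed. That count was 1 with a dye coefficient per group, 1 on the swapped arrays alone, 5 with robust moderation, 11 with scaled arrays and 15 when a gene passed by any single feature, which gave 824 for the dye coefficient. With the wild type number as a replicate block (correlation 0.129) it was 0, and turned by the dyes with that block it was 231 genes and 5 members. The block also left 5 members for the dye coefficient, without Cyp4a14 (adjusted p = 0.0548). Its correlation is the same for all genes, while the intraclass correlation by number, which includes orientation, had a median of 0.73 over the members. Leaving out 1 array or both of a number gave 0 to 15 genes for untreated and 0 to 8 for treated mutants, 0 to 67 for both and 17 to 527 for the dye coefficient, with 0 to 8 members. It gave 0 to 431 genes and 0 to 8 members for both over wild type, turned by the dyes, and the 7 members kept their direction. The median of the members for treated over untreated lay between -0.08 and 0.11. Apart from the exchange named above, which follows from turning the signs, the cause of these changes was not tested.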
